A study of Homo sapiens with 4 samples.

Results

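EWSR1 and TAF15 of the FET family and FLI1, ERG, ETS1, ETS2, ETV4, ETV5 and GABPA of the ETS family are the genes, or close relatives of the genes, whose fusion drives Ewing sarcoma. They were taken as 9 symbols of these families, with earlier results of these data known, and each matched 1 Ensembl identifier among 60617 gene entries of a read count table. The RNA came from SKNMC, an established Ewing sarcoma cell line known to carry an EWSR1-FLI1 fusion, so every group shares that fusion. Cells were treated with CBL0137 at 1 µM or with the solvent DMSO, each for 24 h, and 2 RNA-seq libraries were made of each. CBL0137 belongs to the curaxins, DNA-binding compounds through which the histone chaperone FACT becomes trapped on chromatin. All libraries come from 1 line, the labels do not say whether those of a group were separate cultures, and the p-values therefore cover only the spread between these libraries, which may be technical.

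FET proteins such as EWSR1 and TAF15 bind RNA and work in transcription and splicing, and their N-terminal low-complexity region turns into a strong activation domain when it is joined to a DNA-binding domain. ETS proteins share a DNA-binding domain that recognises sites with a GGAA core, and include activators (FLI1, ERG, ETS1, ETS2, GABPA, the PEA3 group ETV1, ETV4 and ETV5) as well as repressors (ERF, ETV3, ETV6). In Ewing sarcoma a translocation joins the 5′ part of EWSR1 to the 3′ part of FLI1 or, less often, of ERG, ETV1, ETV4 or FEV. A read count per gene adds the reads of the fusion transcript to those of the unfused alleles, so every EWSR1 and FLI1 value here is a sum of both sources.

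How alike the ETS genes are bears on whether a short read can be given to the right gene, so a coding stretch of 45 bases (15 codons) of the ETS domain is shown. It is the window of FLI1 that is most alike in the other 6 genes. Capitals mark bases that differ from FLI1.
FLI1: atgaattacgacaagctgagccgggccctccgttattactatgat
ERG: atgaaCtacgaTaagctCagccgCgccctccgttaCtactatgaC
ETS1: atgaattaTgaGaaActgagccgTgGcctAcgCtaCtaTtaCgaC
ETS2: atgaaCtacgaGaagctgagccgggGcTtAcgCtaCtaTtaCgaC
ETV4: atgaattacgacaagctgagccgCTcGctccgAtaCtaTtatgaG
ETV5: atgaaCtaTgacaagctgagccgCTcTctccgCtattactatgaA
GABPA: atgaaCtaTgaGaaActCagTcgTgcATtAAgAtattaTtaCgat
In GRCh37 the FLI1 stretch lies in a coding exon at chr11:128680512-128680556 on the plus strand, that of ETS1 at chr11:128332388-128332432 on the minus strand and that of ETV5 at chr3:185769837-185769881 on the minus strand. The ERG stretch is at chr21:39755643-39755687 (minus strand), that of ETS2 at chr21:40194637-40194681 (plus strand) and that of ETV4 at chr17:41606521-41606565 (minus strand). The GABPA stretch runs over an exon junction between chr21:27137067 and chr21:27141327 on the plus strand. ERG differed from FLI1 at 6 of the 45 bases, ETV4 and ETV5 at 7 each, ETS2 at 10, ETS1 at 11 and GABPA at 14. Over the whole coding sequence the longest exact run shared by a pair of these ETS genes was 33 bases (ETV4 and ETV5), followed by 24 bases for FLI1 and ETV4 and 19 bases for ETS1 and ETS2. FLI1 and ERG shared no exact run longer than 17 bases.

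The promoter of EWSR1 is shown because it drives the unfused gene and the fusion alike. The 300 bases are RefSeq's, GRCh38.p14 chr22:29268018-29268317 on the plus strand, 250 before and 50 after the start, with each GGAA or its reverse complement TTCC in capitals.
EWSR1 promoter: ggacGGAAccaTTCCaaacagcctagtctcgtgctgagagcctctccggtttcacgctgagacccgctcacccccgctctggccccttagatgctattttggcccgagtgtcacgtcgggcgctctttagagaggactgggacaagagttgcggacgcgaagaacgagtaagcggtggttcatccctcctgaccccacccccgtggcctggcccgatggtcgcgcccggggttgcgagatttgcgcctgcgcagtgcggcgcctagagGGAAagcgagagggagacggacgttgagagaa
GGAA, searched on both strands, occurred 3 times in this window. It occurs in 95.5% of 35116 promoters of this length, with a median of 3, so the EWSR1 window holds as many as the typical promoter. Its GC content was 62.7%, against a median of 58.7%. The letters TATAAA, also searched on both strands, were not in it, and 11.5% of the promoters hold them.

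The CBL0137 libraries held 20767817 and 21061892 reads in genes and the DMSO libraries 20086664 and 19625517. Of 17374 genes with enough reads for edgeR's quasi-likelihood test, 5798 passed an adjusted p (Benjamini-Hochberg over all genes tested) below 0.05 with a fold above 1.5, which is 33.4% of those tested, 3166 of them higher (18.2%) and 2632 lower (15.1%) in CBL0137. Such a gene is called higher or lower here. With library size alone in place of edgeR's TMM factors the split was 4138 higher and 1877 lower, and the median log2 difference of all genes shifted by 0.16, so small differences depend on the scaling. Levels are given as CPM, counts scaled to TMM-adjusted library sizes, which are relative levels and not exact shares of each library's reads. In bulk RNA fewer cells of a type and less RNA per cell cannot be told apart. All 12 listed Ewing sarcoma markers reached 1 CPM, 5 were called lower and none higher, and the list summed to 1836 and 1961 CPM in CBL0137 against 3009.8 and 3006 CPM in DMSO. Cyclin D1 (CCND1) alone averaged 551 CPM in CBL0137 and 1151 CPM in DMSO and so made most of that gap. LIPI (log2 difference 0.35), NKX2-2 (0.23), VRK1 (0.17) and IL1RAP (0.17), named after their values were seen, had differences above 0 with edgeR adjusted p-values under 0.05, short of the fold limit. GLI1 (-0.30) and STEAP1 (-0.24) had differences below 0 by the same limits. Of the 5 called, the surface glycoprotein gene CD99 had 169 and 189 CPM in CBL0137 against 299 and 279 CPM in DMSO.

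Of the 9 genes, 7 had enough reads to be tested. TAF15, ETS1 and ETV5 were called lower, none was called higher, and EWSR1, FLI1, ETS2 and GABPA were not called. The 3 lower calls stand against 15.1% lower among all genes tested. ETS1 entered the test only through its DMSO libraries, so a lower value was the direction open to it, and the count is given as a description. The median log2 difference of the 7 was -0.23, beside 0.01 over all genes. ERG and ETV4 had too few reads for the test.

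Levels of different genes were compared per kilobase of annotated exon, an order that depends on the length used. On this scale the CBL0137 libraries had EWSR1 first, at a mean of 34.2 CPM per kb. GABPA (19.1) and TAF15 (18.9) followed with overlapping libraries, then FLI1 (8.85), ETS2 (6.04) and ETV5 (0.718 CPM per kb). ETV4 (0.0709), ETS1 (0.0349) and ERG (0.00599 CPM per kb) were at the bottom. In DMSO, EWSR1 (38.7 CPM per kb) and TAF15 (37.6) overlapped at the top, ahead of GABPA (19.3), FLI1 (8.71), ETS2 (7.09) and ETV5 (1.14 CPM per kb). At the bottom came ETS1 (0.197 CPM per kb), and then ERG (0.0388) and ETV4 (0.0304), which overlapped. By the deposited FPKM the order of the abundant genes was another. TAF15 had 81.4 and 100.05 FPKM in CBL0137 against 163 and 155 FPKM in DMSO, which overlapped EWSR1 in CBL0137 (68.2 and 93.3) and was above it in DMSO (104.1 and 103.3). GABPA was far below both, at 19.3 and 17.8 FPKM in CBL0137 against 16.2 and 18.1 FPKM in DMSO.

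**Figure D1:**
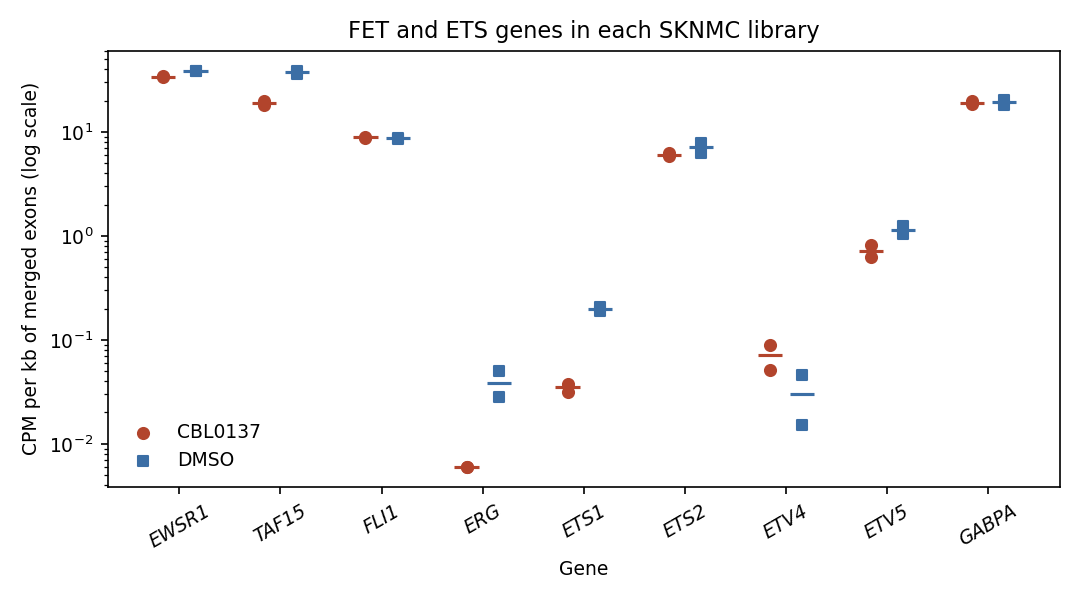
Level of each of the 9 genes in every library (points, 2 per group, lines at the group means, CBL0137 left of DMSO) in CPM per kilobase of exon, on a log scale. TAF15 sits at 18.1 and 19.8 in CBL0137 against 39.0 and 36.2 in DMSO, and ETS1 is low in both groups.

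TAF15, an RNA-binding FET protein fused to NR4A3 in another sarcoma, fell in CBL0137. It had 246 and 269 CPM in CBL0137 against 531 and 493 CPM in DMSO (257 ± 16.1 against 512 ± 26.4, SD, n = 2 each). The groups did not overlap, and the gap was many times the spread between libraries. The log2 difference was -0.99 (SE 0.05, 95% interval -1.10 to -0.88, edgeR adjusted p = 2.7e-19), a level of 50.3% of that in DMSO. TAF15 (ENSG00000270647, GRCh37 chr17:34136486-34191619, plus strand) shares 296 bp of exon, 2.18% of its own, with HEATR9 on the opposite strand, and HEATR9 had at most 33 reads in any library.

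EWSR1, the 5′ partner of the fusion, moved far less. It had 349 and 357 CPM in CBL0137, against 399.963 and 400.232 CPM in DMSO (352.9 ± 5.54 against 400.1 ± 0.19, SD, n = 2 each). Both CBL0137 libraries lay below both DMSO libraries, but the log2 difference of -0.18 (SE 0.05, 95% interval -0.28 to -0.08, edgeR adjusted p = 0.0023) was under the fold limit. With library size alone it was -0.02 (edgeR adjusted p = 0.716), so its size rests on the scaling. EWSR1 (ENSG00000182944) spans GRCh37 chr22:29663998-29696515 on the plus strand. It shares 121 bp of exon, 1.17% of its own, with RHBDD3 on the opposite strand. RHBDD3 had 1954 and 2041 reads in CBL0137 against 1172 and 1130 reads in DMSO.

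Ratios of reads between genes of the same library do not depend on how libraries are scaled, and 6 such ratios were computed. TAF15 reads per EWSR1 read were 0.705 and 0.753 in CBL0137 against 1.33 and 1.23 in DMSO. Both CBL0137 libraries had fewer TAF15 than EWSR1 reads, and both DMSO libraries had more. With 2 libraries a group an exact two-sided permutation test cannot give less than p = 0.333, so no ratio can pass it. Against GABPA, TAF15 had 2.18 and 2.53 reads per read in CBL0137 and 5.03 and 4.25 in DMSO, and ETV5 had 0.0495 and 0.0676 reads per FLI1 read in CBL0137 and 0.104 and 0.0847 in DMSO. GABPA per FLI1 read (1.56 and 1.53 in CBL0137, 1.52 and 1.65 in DMSO) and ETS2 per GABPA read (0.257 and 0.292 in CBL0137, 0.372 and 0.270 in DMSO) overlapped.

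**Figure D2:**
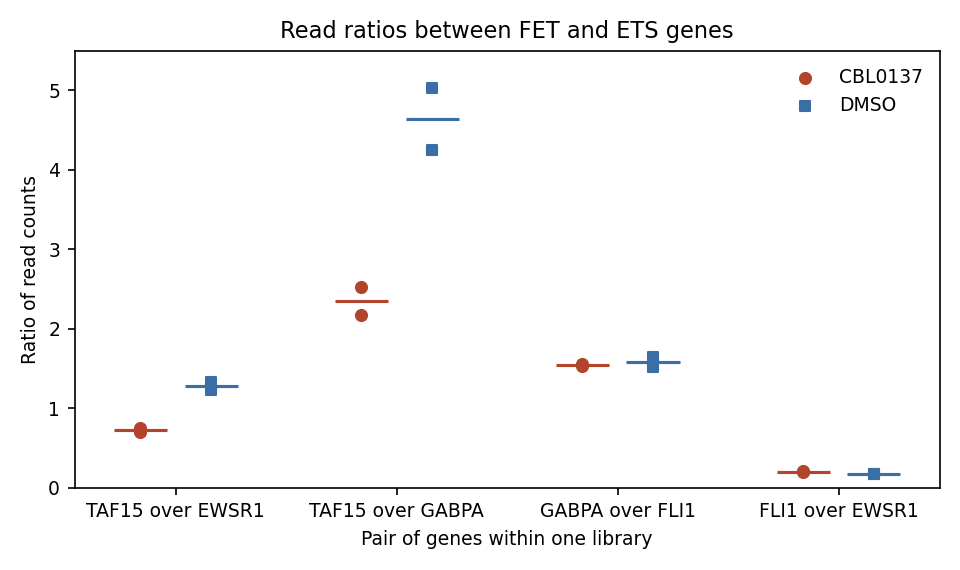
Ratios of reads between FET and ETS genes within each library (points, lines at the group means, CBL0137 left of DMSO, linear axis from 0). TAF15 per EWSR1 read lies at 0.705 and 0.753 in CBL0137 and 1.33 and 1.23 in DMSO, GABPA per FLI1 read overlaps between the groups, and FLI1 per EWSR1 read is 0.208 and 0.195 in CBL0137 and 0.173 and 0.176 in DMSO.

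FLI1, the 3′ partner of the fusion and a regulator of blood and endothelial cells, differed little between the groups. It had 72.6 and 69.5 CPM in CBL0137 against 69.4 and 70.4 CPM in DMSO, and the libraries overlapped. The log2 difference was 0.02 (SE 0.06, 95% interval -0.10 to 0.15, edgeR adjusted p = 0.766). With library size alone it was 0.18 (edgeR adjusted p = 0.0122), still under the fold limit. FLI1 reads per EWSR1 read were 0.208 and 0.195 in CBL0137 against 0.173 and 0.176 in DMSO. This ratio, free of scaling, was thus higher in both CBL0137 libraries, by 0.20 on the log2 scale. FLI1 (ENSG00000151702) spans GRCh37 chr11:128556430-128683162 on the plus strand.

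ERG, the usual alternative to FLI1 in Ewing fusions, was nearly silent. It had 1 and 1 reads in the CBL0137 libraries against 4 and 7 reads in the DMSO libraries. Pooled over each group this is 0.0453 CPM (exact Poisson 95% interval 0.00549 to 0.164) in CBL0137 and 0.293 CPM (0.146 to 0.524) in DMSO. The ratio of the pooled levels was 0.155, with a counting interval of 0.0167 to 0.709 that, like the other intervals on reads, covers counting error only and leaves out the spread between libraries. When the filter on low counts was dropped, ERG was not called. ERG (ENSG00000157554) spans GRCh37 chr21:39751949-40033704 on the minus strand.

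FLI1 and ERG are normally genes of endothelial and blood cells, so markers of those cells were set beside them. Of 9 endothelial markers matched by symbol, 3 reached 1 CPM in any library. Their list summed to 9.83 and 10.4 CPM in CBL0137 against 11.05 and 10.7 CPM in DMSO, with ROBO4 at 0 reads in all 4 libraries. CDH5 (VE-cadherin) was called higher at 2.91 and 3.39 CPM in CBL0137 against 1.37 and 1.67 CPM in DMSO, and EMCN lower at 4.69 and 4.56 CPM in CBL0137 against 7.77 and 7.90 CPM in DMSO. Of 10 haematopoietic markers, PTPRC and CD79A alone reached 1 CPM, the list summed to 116 and 135 CPM in CBL0137 against 176 and 176 CPM in DMSO, and HBB was at 0 in all. PTPRC, which encodes CD45, made most of that sum with 107 and 124 CPM in CBL0137 against 162 and 162 CPM in DMSO. What part these genes have in the FLI1 and ERG values was not tested.

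ETS1, an activator studied in lymphocytes and in invading cells, was low in SKNMC and fell in CBL0137. It had 5 and 6 reads in the CBL0137 libraries against 28 and 25 reads in the DMSO libraries, or 0.228 and 0.271 CPM against 1.48 and 1.34 CPM. Every CBL0137 library lay far below both DMSO libraries. The log2 difference was -2.47 (SE 0.52, 95% interval -3.53 to -1.42, edgeR adjusted p = 7.7e-05). The pooled reads, 11 in CBL0137 and 53 in DMSO, gave a ratio of 0.177 with a counting interval of 0.0832 to 0.342. ETS1 passed the filter on low counts only through its DMSO libraries, so a lower value was the direction open to it. The p-value and intervals are therefore given as a description and not as support. The deposited FPKM values of ETS1 ran the other way, at 0.0447 and 0.0649 in CBL0137 against 0.0350 and 0.0371 in DMSO, and were too low for a test. ETS1 (ENSG00000134954, GRCh37 chr11:128328656-128457453, minus strand) is the neighbour of FLI1 on chromosome 11. The 2 genes lie 98976 bp apart on opposite strands with no protein-coding gene between them, and only ETS1 was called.

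ETS2, the relative of ETS1 that lies 143402 bp from ERG on chromosome 21, was not called. It had 29.1 and 31.1 CPM in CBL0137 against 39.3 and 31.3 CPM in DMSO. The second DMSO library was level with CBL0137, and the first set the difference. The log2 difference was -0.23 (SE 0.09, 95% interval -0.41 to -0.05, edgeR adjusted p = 0.0244), against -0.08 without DMSO replicate 1 and -0.40 without DMSO replicate 2. ETS2 (ENSG00000157557) spans GRCh37 chr21:40177107-40196879 on the plus strand.

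By the rule of likeness fixed for the called gene with the largest difference, SLC7A3, RIOX2 and CDH4 had the patterns nearest to that of ETS1 over the 4 libraries, among 10377 genes. The distance of their log2 CPM values from those of ETS1, each centred on its DMSO mean, was 0.103, 0.107 and 0.122. Only genes well above the level of ETS1 were candidates, so all are more abundant than ETS1 by that choice. Their edgeR log2 differences were -2.13, -2.14 and -2.12, smaller in size than the -2.47 of ETS1. CDH4, a cadherin, had 11.97 and 14.7 CPM in CBL0137 against 63.3 and 52.9 CPM in DMSO.

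ETV5, a PEA3-group activator that answers to growth factor signalling through ERK, was called lower, with a call that did not hold throughout. It had 3.60 and 4.70 CPM in CBL0137 against 7.19 and 5.96 CPM in DMSO, without overlap. The log2 difference was -0.66 (SE 0.20, 95% interval -1.06 to -0.27, edgeR adjusted p = 0.0033). The deposited FPKM values of ETV5 did overlap, at 0.783 and 0.989 in CBL0137 against 0.882 and 1.60 in DMSO. The call was lost with DESeq2 (-0.68, adjusted p = 0.0714), with library size alone (-0.51), without the filter on low counts (-0.69, edgeR adjusted p = 0.0543), without CBL0137 replicate 1 (-0.49) and without DMSO replicate 1 (-0.54). ETV5 (ENSG00000244405, GRCh37 chr3:185764103-185828107, minus strand) shares 164 bp of exon with DGKG on the same strand, which had at most 6 reads in a library.

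ETV4, the PEA3-group gene whose coding sequence shares the 33-base run with ETV5, had 4 and 7 reads in CBL0137 against 1 and 3 reads in DMSO. The pooled ratio of 2.34 had a counting interval of 0.693 to 10.1, so no difference was detectable at this depth. It shares 68 bp of exon with the far more abundant DHX8 on the opposite strand. ETV4 (ENSG00000175832) spans GRCh37 chr17:41605212-41656988 on the minus strand. ETV1, the remaining PEA3-group gene, had 9.33 and 8.58 CPM in CBL0137 against 11.2 and 14.3 CPM in DMSO (log2 difference -0.51, edgeR adjusted p = 0.0015), and was not called. Its log2 difference was -0.70 without DMSO replicate 1, past the fold limit, and -0.34 without DMSO replicate 2. With FPKM + 0.1 ETV1 was called lower (-0.59, limma adjusted p = 0.0438).

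The PEA3-group genes are repressed by CIC, a repressor that ERK signalling removes, and 21 genes of this circuit were listed. Of 17 tested, 3 were called higher, 4 lower and 10 were not called, with a median log2 difference of 0.10, while the shares over all genes were 18.2% higher and 15.1% lower. Using library size alone 4 were higher and 2 lower and the median was 0.26. CCND1 (cyclin D1) fell, with 527 and 574 CPM in CBL0137 against 1158 and 1144 CPM in DMSO, and shares 497 bp of exon, 10.4% of its own, with LTO1 on the opposite strand. SPRED2, an inhibitor of the ERK pathway, also fell, with 39.7 and 38.3 CPM in CBL0137 against 61.4 and 62.9 CPM in DMSO. Its call was lost with library size alone and with FPKM. In FPKM it was still lower, at 6.52 and 5.94 in CBL0137 against 8.69 and 8.64 in DMSO. SPRY2, a feedback inhibitor named after its values were seen, was the other gene called lower beside ETV5, at 1.09 and 0.723 CPM in CBL0137 against 2.85 and 2.52 CPM in DMSO.

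The 3 genes called higher were all of low abundance. SPRED3, of the same inhibitor family as SPRED2, had 3.91 and 3.43 CPM in CBL0137 against 1.53 and 1.56 CPM in DMSO (log2 difference 1.25). MAFF and DUSP5, an ERK phosphatase, had log2 differences of 1.00 each, and both calls were lost with DESeq2. That of MAFF was also lost without DMSO replicate 1 (0.69), with FPKM + 1 (0.53) and after removal of the GC and span trend (0.54). That of DUSP5 was also lost without the filter on low counts (0.97), CBL0137 replicate 1 (0.86) or DMSO replicate 2 (0.60). MAFF shares 326 bp of exon, 5.81% of its own, with PLA2G6 on the opposite strand, which was itself called higher. CIC had 211 and 209 CPM in CBL0137 against 151 and 149 CPM in DMSO (log2 difference 0.49, edgeR adjusted p = 1.1e-10), under the fold limit. CIC passed the limit on FPKM + 0.1 (0.62) and when library size alone was used (0.65), and its value was -0.05 after the trend across all genes with transcript GC and gene span was taken out. The members of the circuit did not move one way.

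GABPA, the DNA-binding subunit of GABP, a factor of housekeeping and mitochondrial genes, was not called. It had 113 and 106 CPM in CBL0137 against 106 and 116 CPM in DMSO, fully overlapping. The log2 difference of -0.01 had a 95% interval of -0.13 to 0.10 (edgeR adjusted p = 0.851), and its sign turned in 7 of the alternatives, so it has no direction. GABPA (ENSG00000154727, GRCh37 chr21:27106881-27144771, plus strand) shares 692 bp of exon, 12.1% of its own, with ATP5PF on the opposite strand, more than any other of the 9, so its count is less certain than theirs.

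The partner subunits of GABPA moved while GABPA did not pass the test. GABPB2 fell, with 26.9 and 27.7 CPM in CBL0137 against 67.9 and 69.2 CPM in DMSO (log2 difference -1.33, SE 0.07, edgeR adjusted p = 2.4e-19). GABPB1, named after its values were seen, also fell, with 21.7 and 18.6 CPM in CBL0137 against 39.9 and 38.9 CPM in DMSO (log2 difference -0.97, SE 0.09, edgeR adjusted p = 1.6e-12). GABPB subunits carry the activation domain of the complex. GABPB1 shares 424 bp of exon, 7.46% of its own, with its antisense RNA GABPB1-AS1, which had 2342 to 2494 reads in CBL0137 and 2774 to 2859 reads in DMSO.

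GABPB1 and GABPB2 belonged to a list of 17 genes whose proteins bind or modify FET and ETS proteins. Of these, all tested, 1 was called higher, 4 lower and 12 were not called, close to the 33.4% called over all genes. The median log2 difference was -0.30, and -0.14 with library size alone. PRMT1, the arginine methyltransferase of FET proteins, fell with 185 and 201 CPM in CBL0137 against 443 and 433 CPM in DMSO (log2 difference -1.18, SE 0.05). POLR2A, the largest subunit of RNA polymerase II, rose with 508 and 459.9 CPM in CBL0137 against 221 and 223 CPM in DMSO (log2 difference 1.13, SE 0.05). The cohesin subunit STAG2, named after its values were seen, fell with 322 and 331 CPM in CBL0137 against 523 and 544 CPM in DMSO. STAG2 was still lower, but short of the fold limit, when only library size was used for scaling (log2 difference -0.55). The same held on FPKM + 1 (-0.33), on FPKM + 0.1 (-0.39) and once GC and span were accounted for (-0.32). DHX9, an RNA helicase that binds EWSR1-FLI1, had a log2 difference of 0.01 (95% interval -0.09 to 0.12), and TNPO1, the import receptor of FET proteins, one of -0.08 (-0.19 to 0.02).

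**Figure D3:**
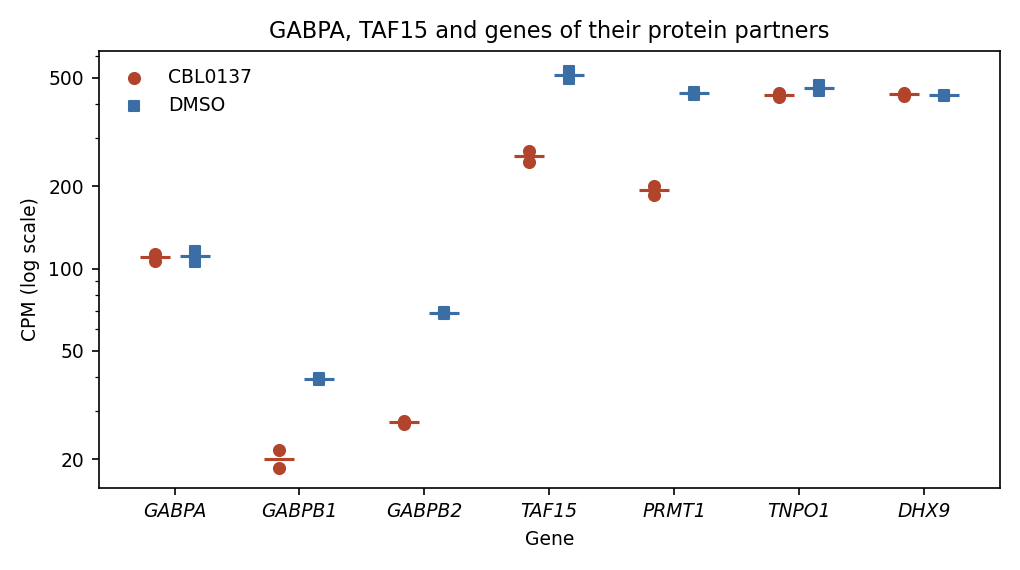
CPM (log scale) of GABPA with its partner subunits GABPB1 and GABPB2, and of TAF15 with PRMT1, TNPO1 and DHX9, in every library (points, lines at the group means, CBL0137 left of DMSO). GABPA overlaps between the groups, and GABPB1, GABPB2, TAF15 and PRMT1 are lower in CBL0137.

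The ETS family has 28 genes in the count table. Against 33.4% of all genes, the 16 tested held 1 called higher, 3 lower and 12 not called, with a median log2 difference of -0.05, and 0.11 with library size alone. Of the 12 not tested, ETV3L, ELF5 and EHF had no read in any library and the other 9 had at most 25 reads over all 4 libraries. All ETS genes together had 854 and 844 CPM in CBL0137 against 791 and 782 CPM in DMSO.

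ERF, a repressor that ERK controls, was the gene called higher, with 240.4 and 229 CPM in CBL0137 against 159 and 152 CPM in DMSO. Its log2 difference of 0.59 (SE 0.05, edgeR adjusted p = 8.5e-13) was close to the fold limit, and its share of ETS reads was 28.1% and 27.1% in CBL0137 against 20.1% and 19.4% in DMSO. The call was lost with DESeq2 (0.58), without the filter on low counts (0.57), without CBL0137 replicate 1 (0.56) and without DMSO replicate 2 (0.55). The difference was 0.06 once the trend with GC content and span was removed. The longest transcript of ERF has a GC content of 63.9%. ELF1, an activator of lymphoid genes, fell with 36.4 and 36.7 CPM in CBL0137 against 62.4 and 63.1 CPM in DMSO (log2 difference -0.78, SE 0.07, edgeR adjusted p = 9.9e-13). Its difference was -0.58 with the GC and span trend removed, just short of the fold limit.

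The remaining ETS genes tested stayed within the fold limit. ELK4, a partner of serum response factor, had 71.3 and 75.1 CPM in CBL0137 against 54.7 and 55.1 CPM in DMSO (log2 difference 0.42, edgeR adjusted p = 5.6e-07). ETV3 and ELK1 had log2 differences of 0.14 each. ETV6 had 0.03, ELF4 -0.04, ELF2 -0.05, ELK3 -0.05 and ETV2 -0.07, values whose sign turns with the scaling or with the library left out. Among the genes too low to test, ETV7 had 13 reads in CBL0137, or 0.295 CPM (exact Poisson 95% interval 0.157 to 0.504), and none in DMSO, where 3 reads would be 0.0799 CPM. SPIB had 10 reads in CBL0137, or 0.227 CPM (0.109 to 0.417), and none in DMSO. SPIC went the other way, with no read in CBL0137 and 4 in DMSO, all of them in the first DMSO library. FEV, a rare fusion partner, had 14 reads in CBL0137 and 11 in DMSO. ELF3, SPI1 and SPDEF had reads in both groups.

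**Figure D4:**
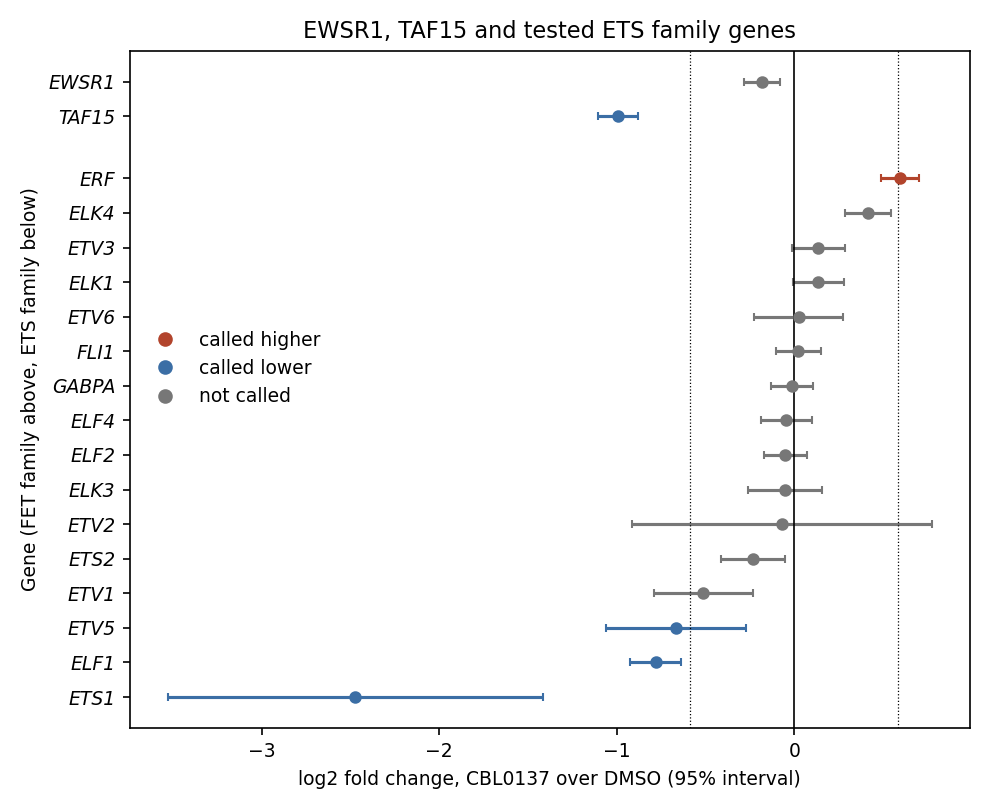
Log2 difference (CBL0137 over DMSO) of EWSR1, TAF15 and each tested ETS gene with its 95% interval from edgeR, and the fold limit of 1.5 as dotted lines. TAF15, ETS1, ETV5 and ELF1 lie past the lower line and ERF past the upper, and FLI1 and GABPA sit at 0.02 and -0.01.

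Enzymes that attach ubiquitin to ETS or fusion proteins or remove it made a list of 8, all tested, with 1 called higher and 1 lower, beside 33.4% called over all genes, and a median log2 difference of -0.07. OTUD7A, a deubiquitinase reported to stabilise EWSR1-FLI1, had 1.32 and 0.813 CPM in CBL0137 against 0.159 and 0.645 CPM in DMSO (log2 difference 1.40). Its first DMSO library had 3 reads, and it passed the filter on low counts through both CBL0137 libraries, so a higher value was the direction more open to it. DET1, a part of the COP1 ligase that targets PEA3-group proteins and ETS1, had 1.23 and 1.40 CPM in CBL0137 against 1.74 and 2.74 CPM in DMSO (log2 difference -0.77). DET1 shares 2464 bp of exon, 35.9% of its own, with another gene entry on the same strand, so its count is uncertain. Both calls were lost with DESeq2 and without the filter on low counts. That of OTUD7A was also lost without CBL0137 replicate 1 (1.01) or DMSO replicate 1 (0.70), and that of DET1 without CBL0137 replicate 1 (-0.68), CBL0137 replicate 2 (-0.87) or DMSO replicate 2 (-0.42). The DET1 call was lost, too, with upper-quartile factors (-0.70), library size alone (-0.61), the replicate block (-0.75, edgeR adjusted p = 0.0546) and FPKM (-0.19 with a pseudocount of 1). COP1 itself, at 43.4 and 44.1 CPM in CBL0137 against 64.1 and 57.0 CPM in DMSO, had a log2 difference of -0.47 and was not called. USP9X had 0.28 and SPOP, the ligase adaptor for ERG, -0.18, also not called.

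**Figure D5:**
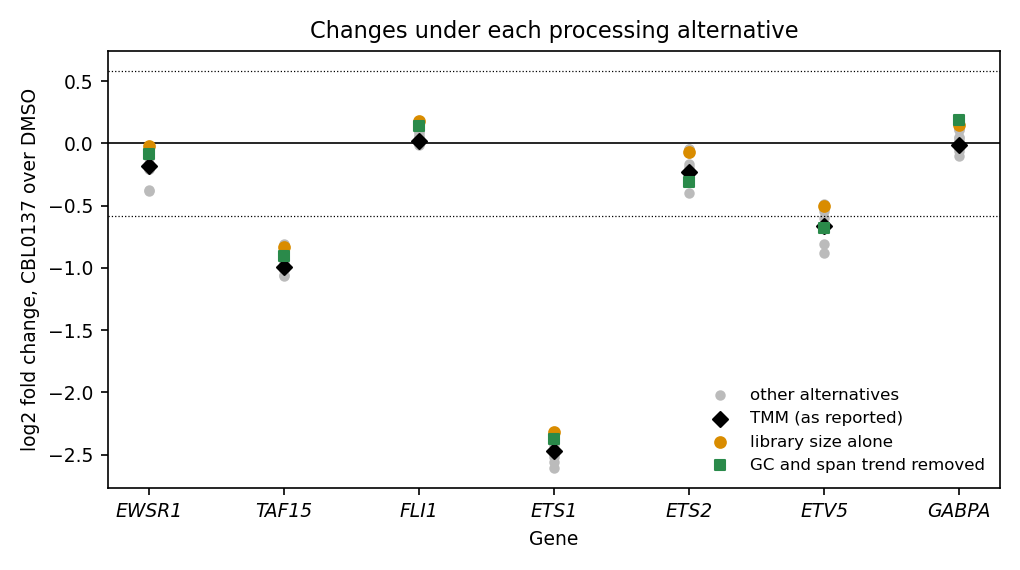
Log2 difference (CBL0137 over DMSO) of the tested members as reported (diamonds), with library size alone (orange), with the GC and span trend removed (green) and under the other alternatives (grey), with the fold limit of 1.5 as dotted lines. TAF15 lies between -1.06 and -0.81, EWSR1 runs from -0.38 to -0.02 and GABPA lies on both sides of 0. ETS1 lies between -2.61 and -2.32 with counts only. ETS1 and ETV5 did not pass the FPKM filter and have no FPKM points, and the deposited FPKM of ETS1 ran the other way.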

How the data were processed

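RNA-seq was made by the authors from SKNMC total RNA (2 CBL0137 and 2 DMSO libraries). Per the submitters' processing notes the tools were Trim Galore, HISAT2, HTSeq 0.11.1 and DESeq2 1.26.0. The strand setting was not given in the sources used here. Raw read counts and FPKM per Ensembl gene were deposited by the authors, for 60617 genes and 6 other entries left out here.

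Counts were tested with edgeR 4.0.16 (R 4.3.3; quasi-likelihood F test, TMM factors, filterByExpr with a minimum count of 10) on all 4 libraries without a replicate block. A gene is called at an adjusted p under 0.05 and a fold above 1.5. On simulated counts for 16938 genes the fit recovered 98% of changes of 2-fold and 100% of 4-fold among 200 changed genes. The changed genes were drawn from those with many reads, and all genes were given the same dispersion. These shares therefore do not cover genes of few reads such as ETS1. The notes name the builds hg19 and mm10, and the authors' annotation release is unknown here. Gene positions, exon lengths and overlaps are therefore those of a GENCODE annotation lifted to GRCh37, which held 58524 of the identifiers, and values per kb depend on it. Deposited FPKM are an alternative, tested with limma 3.58.1 on log2(FPKM + 1) for genes at 1 FPKM or more in 2 libraries. DESeq2 1.42.0 is another.

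Members and lists were chosen with earlier results of these data known. Named are all members, every tested ETS gene, the 3 smallest p-values of each other list, and any gene called in a direction that 3 or fewer of its list share. A further gene that this rule names is not reported here. Exceptions are said in the text. CD99, CDH5, EMCN, PTPRC, CD79A, ROBO4, HBB, LIPI, NKX2-2, VRK1, IL1RAP, GLI1 and STEAP1 were also named after their values were seen. DHX9, TNPO1 and the untested ETS genes that are not members were named outside this rule too. Libraries within each group varied beyond counting noise (chi-square per degree of freedom 2.82 in CBL0137 and 3.12 in DMSO).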

Additional observations from a re-analysis of the deposited data

How the results depend on the processing

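TAF15 was called lower in all 14 alternatives that kept the fold limit of 1.5, and not with a fold above 2. Of the 9 genes, 3 were called, and 1 with FPKM (pseudocount 1 or 0.1), 5 with no fold limit, 1 with a fold above 2 and 2 to 3 when a library was left out. ETS family calls, 4 at first, numbered 2 with DESeq2, without the filter or with FPKM + 1, 7 with no fold limit, 1 above 2-fold and 2 to 4 with a library left out, the 2 without CBL0137 replicate 1. Of EWSR1 and TAF15, 1 was called at first, 2 with no fold limit and 0 above 2-fold. Calls in the CIC circuit, 7 at first, were 4 with DESeq2, 1 with FPKM + 1, 4 with FPKM + 0.1, 11 with no fold limit and 3 above 2-fold. Partner calls, 5 at first, were 13 with no fold limit and 3 above 2-fold. Ubiquitin enzyme calls, 2 at first, were 0 with DESeq2, without the filter or with FPKM at either pseudocount, 1 with upper-quartile factors, library size alone, the stricter filter or the replicate block, 5 with no fold limit, 1 above 2-fold and 0 to 1 with a library left out. Over all genes 5798 calls were 3436 with FPKM + 1, 10722 with no fold limit and 3206 above 2-fold. The fold limits change these counts by construction. The FPKM filter left 5 of the 9 genes to test, against 7 with counts, and ETS1 and ETV5 were not among them. It left 8 genes of the CIC circuit, against 17 with counts. The stricter filter left 7 of the 8 ubiquitin enzymes. The cause of the other moves was not tested.

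Log2 differences that turned sign were all small. With library size alone they were ETV2 0.088, ELK3 0.11, ELF2 0.11, ELF4 0.11 and GABPA 0.14. With upper-quartile factors they were ELK3 0.016, ELF2 0.018, ELF4 0.024 and GABPA 0.054. With FPKM + 1 they were ELK3 0.0077, SPOP 0.023, ELF2 0.037, ELF4 0.050 and GABPA 0.11, and with FPKM + 0.1 ELK3 0.011, SPOP 0.024, ELF2 0.040, ELF4 0.055 and GABPA 0.12. Without the GC and span trend, for which 99.3% of tested genes had values, they were CIC -0.049, NKX2-2 -0.16, ELK1 -0.19, ELK3 0.035, ELF2 0.13 and GABPA 0.19. With a library left out the ranges were -0.010 to 0.049 for FLI1, -0.099 to 0.040 for GABPA, -0.38 to 0.18 for ETV2, -0.17 to 0.21 for ETV6, -0.12 to 0.010 for ELF2, -0.11 to 0.012 for ELF4 and -0.18 to 0.054 for ELK3.

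Replicate numbers are shared by the groups, and deviations of same-numbered libraries correlated at 0.02 across genes. The labels do not say whether same-numbered libraries were handled together, and a single correlation cannot settle it. The replicate block gave 3 calls among the 9 genes and 5741 over all genes. Depth limits ERG and ETV4, with 13 and 15 reads over all libraries.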

Other observations

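The deposited FPKM values are not a simple rescaling of the deposited counts. The gene length that turns a library's count into its FPKM, divided by the annotated exon length, had a median of 1.03 over 17132 tested genes and ran from 0.226 at the 5th percentile to 3.19 at the 95th. For FLI1 the implied length was 47.4 and 34.8 kb in CBL0137 and 41.4 and 36.0 kb in DMSO, against 8.026 kb of exon, at the 97.4th percentile. For EWSR1 it was 5.41 and 4.02 kb in CBL0137 against 3.62 and 3.68 kb in DMSO, beside 10.327 kb of exon. For ETS1, whose FPKM and counts ran in opposite directions, it was 5.39 and 4.39 kb in CBL0137 against 39.9 and 34.4 kb in DMSO. For TAF15 it was 3.20 and 2.83 kb in CBL0137 against 3.07 and 3.01 kb in DMSO, beside 13.607 kb of exon, at the 4.90th percentile. GABPA and ETS2 were even, at 6.09 to 6.28 kb and 4.90 to 5.01 kb. Over all genes with both values, 96 of 5648 called genes (1.70%) had FPKM means that ran opposite to the counts.

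EWSR1 had 68.2 and 93.3 FPKM in CBL0137 against 104.1 and 103.3 FPKM in DMSO, a wider gap between the CBL0137 libraries than in CPM. FLI1 had 1.62 and 2.10 FPKM in CBL0137 against 1.58 and 1.86 FPKM in DMSO, overlapping as in CPM. On the FPKM scale EWSR1 therefore stood far above FLI1, whereas per kilobase of exon the gap was smaller in both groups.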
